A study of Homo sapiens with 8 samples.

Results

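The short-lived probes described here are the Illumina BeadChip probes whose signal was at least 4-fold lower after 18 h of alpha-amanitin than before it, both in MDA-LM2 cells with TARBP2 knocked down and in their control cells. A probe was taken when its detection p-value was under 0.01 in all 4 arrays at 0 h and when the log2 mean at 18 h minus the log2 mean at 0 h, in the authors' normalized values, was -2 or lower in each arm. This rule found 235 probes, which are 1.47% of the 15954 probes detected in all 4 arrays at 0 h and 0.497% of the 47321 probes on the array. The probes were thus chosen by the depth of their fall in each arm, which is given below as a description with no test. The rule used no difference between the arms, and such differences were tested at 0 h, at 18 h and in the size of the fall. The last is the difference of the changes that chose the probes, so the rule limits it. The difference at 18 h rests on 18 h arrays that the rule also used, so the rule limits it in part. Counts over the set in both are a description.

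MDA-LM2 is a human breast cancer line, a derivative of MDA-MB-231 selected for metastasis to the lung. The 8 arrays fell into 4 groups of 2: TARBP2 knock-down cells at 0 h, TARBP2 knock-down cells at 18 h, control cells at 0 h and control cells at 18 h. All cells were transfected with Lipofectamine, and treatment began 48 h later. The 18 h groups had received alpha-amanitin at 10 µM, and the 0 h groups were untreated. In each knock-down group, replicate 1 carried the siRNA siTARBP2-1 and replicate 2 carried siTARBP2-2, so the 2 arrays differ in siRNA as well as in culture. The sample titles label the control cells siControl-1 and siControl-2, while the series text describes them as mock-transfected. The labels do not say whether these numbers stand for different control siRNAs. The labels do not say that the control arrays came from separate cultures, so p-values measure only how far these arrays spread, which may be partly technical. With 2 arrays a group, the number of arrays limits the precision of every difference.

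Alpha-amanitin is a fungal toxin that blocks RNA polymerase II. Once new mRNA is no longer made, the level of each transcript follows its own rate of decay, and transcripts with a short half-life are lost first. Messages for transcription factors, cytokines, growth regulators and inhibitors of signalling are the best-known short-lived class in animal cells, and many of them are cleared through sequence elements in the mRNA that recruit the deadenylation machinery. TARBP2 binds double-stranded RNA, is a partner of Dicer in microRNA processing and also binds structured elements in mRNAs. The deposited array files carry probe identifiers without gene names, and no table used here pairs them with genes. The probes are therefore described by level, detection and change, few are given by identifier, and neither the level of TARBP2 nor markers of the cell line could be read in the arrays.

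Of all array probes, between 15541 and 17619 were detected per array. Replicate arrays correlated at 0.9943 to 0.9973 across probes (log2 signal, Pearson), and no array stood apart. For the short-lived probes, the median absolute log2 difference between replicate arrays was 0.075 in knock-down cells at 0 h, 0.082 in knock-down cells at 18 h, 0.053 in control cells at 0 h and 0.092 in control cells at 18 h. Over all probes detected at 0 h the same measure was 0.075, 0.070, 0.071 and 0.082 in the same groups. The short-lived probes spread less than the detected probes as a whole in control cells at 0 h, equally in knock-down cells at 0 h and slightly more in both arms at 18 h.

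Before treatment the short-lived probes were bright. Their median normalized signal was 1411 in knock-down cells at 0 h (range 311.6 to 23874.5) and 1401 in control cells at 0 h (277.2 to 21772.5), where the medians over all probes detected at 0 h were 544.3 and 544.9. The probes detected at 0 h were ranked by their level there and divided into 10 parts of equal size. The lowest 3 parts, which ended at a signal of 268.9, held no short-lived probe. The fourth part, up to 381.3, held 8, and the fifth held 21. The next parts held 38, 43 and 35, the ninth held 56, or 3.51% of its probes, and the brightest part held 34, or 2.13%. Short-lived probes were thus spread over the upper parts and were most frequent just below the brightest part. The median signal of undetected probes was 72.4 to 73.7 in the normalized table, so a probe in the lowest 3 parts began at less than 4 times the signal that undetected probes show. Such a probe can hardly meet a rule of a 4-fold fall, whatever the decay of its transcript. The high level of the set and its absence from the lowest parts are thus partly built into the rule.

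After 18 h of alpha-amanitin the median signal of the short-lived probes was 228.8 in knock-down cells (range 61.8 to 4876.9) and 216.5 in control cells (49.0 to 4605.4). The median fall was 5.28-fold in knock-down cells and 5.27-fold in control cells, which left 18.95% and 18.97% of the 0 h signal. The middle of the set was narrow, with quartiles of 4.61-fold and 6.35-fold in knock-down cells and of 4.65-fold and 6.79-fold in control cells. The probe with the deepest fall in each arm kept 6.65% of its signal in knock-down cells and 6.14% in control cells. A fall of at least 8-fold was seen for 21 probes in knock-down cells, for 30 in control cells and for 15 in both. A fall of at least 16-fold was seen for no probe in knock-down cells and for 1 in control cells. For every short-lived probe the lowest of the 4 arrays at 0 h was above the highest of the 4 arrays at 18 h, the smallest gap being 2.82-fold. That follows from the rule, and limma put 35.8% of all 18664 tested probes lower at 18 h in knock-down cells and 36.5% lower at 18 h in control cells at an adjusted p under 0.05.

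The falls are larger when background is removed. In values corrected with neqc, which subtracts the array background estimated from negative controls, the median fall was 7.18-fold in knock-down cells and 7.40-fold in control cells, leaving 13.93% and 13.52%. In these corrected values 93 probes were at least 8-fold lower in knock-down cells and 103 in control cells, against 21 and 30 in the normalized table. The corrected values include 38 probes in knock-down cells and 49 in control cells that neither 18 h array of the arm detected. Their corrected levels at 18 h rest on the background estimate, so their falls have no measured size. The correction also turned the relation of depth to level. Across the 235 probes, the mean log2 change of the arms had a Spearman correlation with the level at 0 h of -0.20 in the normalized table, where brighter probes fell more, and of 0.45 in the corrected values, where brighter probes fell less. Both are descriptions over probes that share arrays, and background is present in one set of values and removed from the other.

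The 12 probes with the deepest mean falls among those still detected in at least 1 array at 18 h fell 8.29-fold to 15.0-fold in knock-down cells and 9.67-fold to 16.3-fold in control cells. The deepest were ILMN_1773337 and ILMN_3211935. ILMN_1773337 had normalized signals of 11749 and 12924 in knock-down cells at 0 h and 818.0 and 820.9 at 18 h. In control cells it had 10273 and 9125 at 0 h and 639.9 and 649.2 at 18 h. The fall was 15.0-fold in either arm, and the knock-down arrays were above the control arrays at both times. ILMN_3211935 had 7356 and 7683 in knock-down cells at 0 h and 542.0 and 601.8 at 18 h. It had 7983 and 8275 in control cells at 0 h and 518.4 and 544.2 at 18 h. The falls were 13.2-fold in knock-down cells and 15.3-fold in control cells, and the 18 h arrays of the 2 arms overlapped. The deepest fall of all in the control arm, 16.3-fold, belonged to a further bright probe, which fell 12.3-fold in knock-down cells. That probe held 982.0 and 977.5 in knock-down cells at 18 h and 802.2 and 732.2 in control cells at 18 h, so its knock-down arrays were the higher ones.

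The brightest and second brightest short-lived probes were not among the deepest, although ILMN_1773337 and ILMN_3211935 also began in the brightest part, above 4827.5. The brightest short-lived probe had 24849 and 22900 in knock-down cells at 0 h and 4823 and 4931 at 18 h. In control cells its signals were 21793 and 21752 at 0 h and 3605 and 3716 at 18 h. It fell 4.89-fold in knock-down cells and 5.95-fold in control cells, close to the median of the short-lived probes. The second brightest fell 5.35-fold in knock-down cells and 4.17-fold in control cells. Their signals at 18 h were still far above the median of detected probes. At the other end, the dimmest short-lived probe had 281.7 and 341.5 in knock-down cells at 0 h and 72.1 and 64.5 at 18 h. In control cells it had 299.8 and 254.6 at 0 h and 60.7 and 64.7 at 18 h, and no 18 h array detected it.

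Many of the probes ended at background. At 18 h, 172 of the 235 (73.2%) were detected in all 4 arrays, where 87.9% of the other probes detected at 0 h were. No 18 h array detected 34 of them. In knock-down cells 38 probes were detected in neither 18 h array, and in control cells 49 were. For these the fall is only a lower bound, set against the lowest signal among probes detected in each array. The bounds ran from at least 2.68-fold to at least 13.8-fold lower in knock-down cells, and 24 of the 38 were at least 4-fold. In control cells they ran from at least 2.19-fold to at least 12.2-fold, and 25 of the 49 were at least 4-fold. The rest of these probes are in the set by their measured values, which count background as signal. The 34 probes lost from all 18 h arrays had a median 0 h signal of 486.1, against 2269 for the 172 detected throughout. The deepest of the 34 had 1582 and 1614 in knock-down cells at 0 h and 1502 and 1593 in control cells at 0 h, and was at least 13.8-fold lower at 18 h in knock-down cells and at least 12.2-fold lower in control cells.

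The arrays of each arm gave falls of similar size. The rule set a limit on the mean of the 2 changes in each arm, so this is partly built in and is given as a description. Taking the 2 arrays that share a replicate number, the median log2 change was -2.40 for siTARBP2-1 and -2.40 for siTARBP2-2, with 223 and 227 of the 235 probes at -2 or lower. In control cells it was -2.40 and -2.39, with 230 and 225 probes. In all 4 such changes 205 probes were at -2 or lower, and the least negative single change was -1.79. The median absolute difference between replicate numbers was 0.12 on the log2 scale in knock-down cells and 0.12 in control cells, and the largest was 0.68 and 0.59.

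The rule asks for a deep fall in both arms, so how alike the arms are is partly built in and is given as a description. The changes in knock-down and control cells differed by at most 0.25 on the log2 scale for 165 probes and by at most 0.5 for 227, with a median absolute difference of 0.16 and a largest difference of 0.65. The fall was the less negative one in knock-down cells for 127 probes of 235. Across the 235 probes the 2 changes had a Pearson correlation of 0.83 and a Spearman correlation of 0.72, as a description over probes chosen to be low in both.

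Probes at the edge of the rule formed a continuous range. The 3 just inside it had log2 changes of -2.0806, -2.0013 and -2.0027 in knock-down cells and of -2.0006, -2.3247 and -2.3204 in control cells. The 3 just outside had -1.9972, -1.9968 and -1.9943 in knock-down cells and -2.431, -2.3573 and -1.9929 in control cells. Another 50 probes were 4-fold lower in knock-down cells only, and 87 in control cells only. The 50 were all at least 2-fold lower in control cells too, and 86 of the 87 in knock-down cells. The short-lived probes made up 82.5% of the 285 probes that were 4-fold lower in knock-down cells and 73.0% of the 322 that were 4-fold lower in control cells.

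The values above are relative to the other transcripts. Normalization makes the arrays alike in distribution, which removes a loss shared by all transcripts. In the non-normalized signals the median probe detected at 0 h changed by -0.12 on the log2 scale in knock-down cells and by -0.44 in control cells. The short-lived probes fell there by a median of 5.83-fold in knock-down cells and 7.44-fold in control cells. The upper quartile of all probes at 18 h was 221.6 and 220.0 in the knock-down arrays and 174.0 and 183.5 in the control arrays. A loss of RNA and a difference in array brightness cannot be told apart in these signals. All 235 were at least 4-fold lower in both arms in the non-normalized signals. These come from the same arrays as the rule and were dimmer at 18 h, so that count is no separate support. Alpha-amanitin and 18 h in culture came together, so their shares in the change cannot be told apart, and in a bulk sample fewer cells of a kind and less RNA per cell cannot be told apart either.

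Whether the short-lived transcripts stood at another level in knock-down cells before treatment was tested at 0 h. Few did. In limma's fit over all 8 arrays, 16 of the 235 probes (6.81%) differed at an adjusted p under 0.05, where 3.89% of all 18664 tested probes did. Of these, 9 were higher in knock-down cells (2.06% of all tested probes) and 7 were lower (1.83%). None differed by 2-fold or more, as did 0.0268% of tested probes higher and 0.0482% lower. The median difference over the 235 probes was 0.02 on the log2 scale, against -0.001 over all tested probes, and the quartiles were -0.10 and 0.12. At an unadjusted p under 0.05, 52 probes (22.1%) differed, against 22.4% of all tested probes. For 234 of the 235 the 95% interval of the difference lay within 2-fold either way.

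The probe lowest in knock-down cells at 0 h relative to control cells was ILMN_1794875. It had 1598 and 1607 in knock-down cells and 2662 and 2492 in control cells, so the groups did not overlap. In background-corrected values it was 1.65-fold lower (log2 difference -0.72, SE 0.07, limma adjusted p = 0.00821). ILMN_3178302 had 2481 and 2849 in knock-down cells and 3588 and 3889 in control cells, and its log2 difference was -0.51 (SE 0.09, limma adjusted p = 0.0356). Of the higher probes, ILMN_1773427 had 604.2 and 584.5 in knock-down cells and 427.9 and 401.6 in control cells (log2 difference 0.60, SE 0.07, limma adjusted p = 0.0134). ILMN_2329914 had 3049 and 3138 in knock-down cells and 2195 and 2127 in control cells (log2 difference 0.54, SE 0.08, limma adjusted p = 0.0261). In each of these probes the 2 arrays of a group lay closer to each other than to the other group. ILMN_2329914 was also one of the deepest, falling 12.6-fold in knock-down cells and 11.6-fold in control cells. Leaving out any one of the 0 h arrays, of knock-down or of control cells, left no limma call at 0 h, with 35 to 38 probes at an unadjusted p under 0.05 and at most 0.0268% of all tested probes called. Leaving out either 18 h knock-down array gave 4 calls, with 1.28% of all tested probes called.

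At 18 h more of the probes were called different between the arms than at 0 h, and the share was about that over the whole array. The rule limits this difference in part, so nothing about the set is read from the count. In knock-down cells 45 were higher and 29 lower than in control cells, 74 in all (31.5%), against 28.6% of all tested probes (15.5% higher and 13.1% lower). At least 2-fold differences were called for 1 probe higher and 1 lower, against 0.493% and 0.509% of tested probes, and neither of the 2 probes was detected in all 4 arrays at 18 h. At an unadjusted p under 0.05, 100 probes (42.6%) differed, against 42.1% of tested probes. The median difference was 0.05 on the log2 scale, against 0.01 over all tested probes, and the quartiles were -0.14 and 0.24. Of the 172 probes detected in all 18 h arrays, 56 differed, 33 higher and 23 lower, and of the 29 detected in 1 to 3 of them, 12 did. The other 6 calls are among the 34 probes detected in no 18 h array, which entered the test through their 0 h arrays. They have no measured level at 18 h in either arm, and nothing is read from those calls. In a separate fit of only the probes detected in all 8 arrays, 68 of the 172 were called, against 38.1% of all probes in that fit. For the main fit the share of all tested probes was not counted by detection, so nothing is read from its counts by detection. Without knock-down replicate 1 at 18 h 37 were called and without replicate 2 39, where at most 13.7% of all tested probes were called. With arrays scaled by their median in place of quantiles the calls were 119 higher and 11 lower, with 43.4% of all tested probes called, while the median of all tested probes moved to 0.20 and that of the short-lived probes to 0.28.

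Of the probes lower in knock-down cells at 18 h, ILMN_1682799 had the largest difference among those detected in all 18 h arrays. It had 592.3 and 614.9 in knock-down cells and 1100 and 1173 in control cells. It was 1.999-fold lower in knock-down cells (log2 difference -0.9994, SE 0.07, limma adjusted p = 0.00104). ILMN_2237746 had 113.7 and 106.5 in knock-down cells, where neither array detected it, and 172.1 and 189.5 in control cells, where both did. In the normalized signals it was at least 1.56-fold lower in knock-down cells, against the lowest signal of a detected probe in each knock-down array (limma adjusted p = 0.00194 in the corrected values). Both probes kept their 2 groups well apart.

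Of the probes higher in knock-down cells at 18 h, ILMN_1691860 had 182.8 and 184.9 in knock-down cells and 123.6 and 111.0 in control cells. Only 1 of its 2 control arrays was detected. Its log2 difference was 1.03 in the corrected values (SE 0.10, limma adjusted p = 0.00187), but 0.65 in the authors' normalized values and 0.59 without background correction. ILMN_1794539 had 337.6 and 307.9 in knock-down cells and 202.4 and 192.4 in control cells, all detected. It was 1.89-fold higher in knock-down cells (log2 difference 0.92, SE 0.09, limma adjusted p = 0.00217). The 2 groups did not overlap in either probe.

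Whether knock-down changed the depth of the fall was tested as the stability difference, the log2 change over 18 h in knock-down cells minus that in control cells, for which a positive value means less loss in knock-down cells. Transcript stability is what the series text names as the measurement. Of the 235 probes, 20 (8.51%) differed at an adjusted p under 0.05, where 11.1% of all tested probes did. Less loss in knock-down cells was called for 11 (6.15% of tested probes) and more loss for 9 (4.92%). No called difference was 2-fold or more, while 0.707% of tested probes had one with less loss and 0.396% with more. The median stability difference was 0.03 on the log2 scale, against 0.01 over all tested probes, and the quartiles were -0.16 and 0.21. At an unadjusted p under 0.05, 65 probes (27.7%) differed, against 30.7% of tested probes. For 225 of the 235 the 95% interval lay within 2-fold either way, and the median distance from the estimate to the end of that interval was 0.31 on the log2 scale. The intervals include those of probes that neither 18 h array of an arm detected, 38 in knock-down cells and 49 in control cells. For those probes the fitted value rests on the background estimate, and the interval does not bound the difference in loss. The rule leaves out the 50 probes that were 4-fold lower in knock-down cells only and the 87 in control cells only, so nothing is read from these counts against those of all tested probes. Of the 20 calls, 16 are probes detected in all 18 h arrays, 8 in each direction. The share of all tested probes with such detection was not counted in this fit, so nothing is read from the 16.

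Among probes detected in all 18 h arrays, the largest positive stability difference was that of ILMN_1794539. It had 1866 and 1652 in knock-down cells at 0 h and 337.6 and 307.9 at 18 h. In control cells it had 1676 and 1638 at 0 h and 202.4 and 192.4 at 18 h. The normalized signal fell 5.44-fold in knock-down cells and 8.40-fold in control cells. The arms overlapped at 0 h and separated at 18 h, and in corrected values the stability difference was 0.83 (SE 0.13, limma adjusted p = 0.0178). ILMN_1693668 had 990.1 and 1001 in knock-down cells at 0 h and 120.0 and 115.8 at 18 h. In control cells it had 929.9 and 1012 at 0 h and 88.7 and 86.9 at 18 h, and neither control array detected it at 18 h. It passed the test in the corrected values (limma adjusted p = 0.0167), but no size is given, because the bound set by the undetected control arrays leaves no difference. The same holds in part for ILMN_1691860, detected in 1 of 2 control arrays at 18 h, whose call in the corrected values (limma adjusted p = 0.0348) was lost in the authors' normalized values (limma adjusted p = 0.0813). ILMN_3178302, which was lower in knock-down cells at 0 h, fell 5.29-fold in knock-down cells and 8.23-fold in control cells (stability difference 0.68, limma adjusted p = 0.0282). At 18 h it had 492.4 and 513.7 in knock-down cells and 461.6 and 446.5 in control cells, and the difference there did not pass (log2 0.17, limma adjusted p = 0.208).

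Among probes detected in all 18 h arrays, the largest negative stability difference was that of ILMN_1682799. It had 4263 and 4579 in knock-down cells at 0 h and 5264 and 5308 in control cells at 0 h. It fell 7.32-fold in knock-down cells and 4.65-fold in control cells, and its stability difference was -0.73 (SE 0.10, limma adjusted p = 0.0163). The control arrays were higher than the knock-down arrays at both times, more so at 18 h. A further probe with more loss in knock-down cells had 5962 and 6165 in knock-down cells at 0 h and 671.9 and 645.1 at 18 h. In control cells it had 6391 and 6368 at 0 h and 1060 and 990.1 at 18 h. It fell 9.21-fold in knock-down cells and 6.23-fold in control cells. ILMN_2237746, undetected in knock-down cells at 18 h, had 674.5 and 687.5 in knock-down cells at 0 h and 728.4 and 830.3 in control cells at 0 h. In the normalized signals it lost at least 1.36-fold more in knock-down cells (limma adjusted p = 0.0184 in the corrected values).

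The number of calls fell over the whole array when a group was left with 1 array. Without knock-down replicate 1 at 0 h limma called 2 of the short-lived probes and 1.38% of all tested probes. Without knock-down replicate 2 at 0 h, either knock-down array at 18 h or either control array at 0 h it called none, with 50 to 62 probes at an unadjusted p under 0.05, and 0.257% to 1.11% of all tested probes. Without control replicate 1 at 18 h there were 21 and without control replicate 2 there were 11, against 8.29% and 7.49% of all tested probes. The sizes moved less: over these fits the stability difference of ILMN_1794539 was 0.74 to 0.92 and that of ILMN_1682799 was -0.78 to -0.67. With arrays scaled by their median the count was 77, of which 74 showed less loss in knock-down cells, and 27.8% of all tested probes were called. That scaling moved the median of all tested probes to 0.22 and that of the short-lived probes to 0.28, so most of the shift was common to the array.

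The calls of the 3 comparisons overlapped in part. Both at 0 h and at 18 h 10 probes were called, 14 both at 18 h and in the stability difference, 4 both at 0 h and in the stability difference, and 1 in all 3. These comparisons share arrays, so the overlaps are counts only. No difference was called in any of the 3 for 152 of the 235 probes. The same counts were not made over all tested probes, so nothing particular to the set is read from them. A probe that was not called is not thereby shown to be unchanged.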

How the data were processed

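Total RNA from MDA-LM2 cells was hybridised to 8 single-colour Illumina BeadChip arrays. The authors deposited non-normalized signals as linear intensity values. Beside each signal the deposited table gives a detection p-value. A further deposited table holds intensity values of all 47321 probes, whose nearly equal distributions show normalization between arrays. The submitters' processing notes name lumi without a version. The authors' deposited table of log2 stability ratios per transcript was not used, because nothing joins its accessions to probes. Members were chosen in log2 of the normalized intensity values. They, and the lists and tests, were chosen with earlier results of these data known. Differences between arms were tested on the non-normalized signals after neqc in limma 3.58.1 (R 4.3.3; offset 16, negative controls inferred from detection p-values, quantile normalization). The 18664 probes with detection p under 0.01 in at least 2 of 8 arrays were fitted with 1 coefficient per group (lmFit, eBayes, 2-sided, Benjamini-Hochberg over all of them). The fit left 4 residual degrees of freedom, and eBayes added 2.90. Probe identifiers were printed by a rule on size: the deepest, and the largest called differences of each comparison in each direction, at most the first 2 or 3. At 0 h, where every short-lived probe was detected, sizes were ranked over the whole set. A size called the largest at 18 h or in the stability difference was ranked among probes detected in all arrays at 18 h. Other probes named there carry no rank, and undetected groups were given as bounds in the normalized signals. Gene lists, marker checks, the TARBP2 level, promoter motifs, 1 probe a gene and slide as a block could not be run without probe annotation. The fit was tested on simulated data.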

Additional observations from a re-analysis of the deposited data

Results flagged for a closer look

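In the stability difference, 20 of the 235 short-lived probes (8.51%) had falls that differed between the arms (limma adjusted p under 0.05). Of all tested probes 11.1% did, so nothing about the set is read from the count. With a replicate block within each arm limma called 0 of the 235 probes and 0.0% of all tested probes, with 58 of the 235 at an unadjusted p under 0.05. Of the 5 calls with the largest fitted values in each direction, 7 were detected in all 18 h arrays. Those with less loss in knock-down cells had log2 differences of 0.83 (ILMN_1794539), 0.68 (ILMN_3178302) and 0.61. Those with more loss in knock-down cells had -0.73 (ILMN_1682799), -0.62, -0.60 and -0.60. The others, ILMN_2237746, ILMN_1693668 and ILMN_1691860, were undetected in at least 1 array at 18 h and are given no rank.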

How the results depend on the processing

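The 235 probes became 528 in neqc values, which hold all 235, and 441 in non-normalized signals scaled by array median. They were 1713 at a threshold of 2-fold and 15 at 8-fold. Leaving out 1 array gave 228 to 238. The calls at 0 h (16) became 27 in the authors' normalized values (18 higher and 9 lower), 34 without background correction, 2 with no filter on detection and 25 of the 172 probes detected in all 8 arrays, while the share of all tested probes went to 6.16%, 7.29%, 0.277% and 11.9%. The calls at 18 h (74) became 130 with arrays scaled by their median (43.4% of all tested probes) and 45 with no filter (7.02%). The calls in the stability difference (20) became 31 without background correction (16.2% of all tested probes), 77 with arrays scaled by their median (27.8%), 2 with no filter (0.811%) and 38 of the 172 detected in all 8 arrays (20.3%). Arrays scaled by their median gave 5 higher and 7 lower at 0 h, where the median of the short-lived probes turned to -0.01 and that of all tested probes was -0.03, and cyclic loess 22 and 8 in the stability difference. Leaving out each array in turn gave 0 to 18 calls at 0 h, 37 to 62 at 18 h and 0 to 21 in the stability difference. In knock-down cells the replicate numbers pair the arrays of the 2 times by siRNA. Across probes, the difference between replicate numbers at 0 h correlated with that at 18 h at 0.03 in knock-down cells and -0.01 in control cells. Arrays of the same number thus shared little deviation, which does not show that the design is unpaired. With a replicate block within each arm limma called 0, 55 and 0 probes in the 3 comparisons, with 44 and 58 at an unadjusted p under 0.05 at 0 h and in the stability difference, and a block shared by both arms gave 4, 67 and 11. Of all tested probes the first block called 0.0321%, 20.7% and 0.0% and the second 1.52%, 25.5% and 7.07%. No probe named in a comparison changed direction under any alternative, but at 0 h 79 of the probe-by-alternative results lost their call and 78 kept it, in the stability difference 85 lost it and 72 kept it, and at 18 h 6 lost it and 148 kept it. The causes of these shifts were not tested. A block for slide and averaging by gene were not run.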
